A study of Homo sapiens with 12 samples.

Results

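The genes of protein folding, disulfide formation, degradation and stress sensing in the endoplasmic reticulum (ER) were followed in RPE-1 cells, a human line derived from the pigment epithelium of the retina. The members are a list of named genes, drawn up with earlier results of these data known. It held 41 symbols, which stand for 40 distinct genes of 43481 in the files, since VIMP is an older symbol of SELENOS. They comprised 13 chaperones and folding factors, 7 disulfide isomerases and oxidases, 13 genes of ER-associated degradation, and 7 stress sensors with the proteins that process them. Poly-A RNA was sequenced in 12 libraries, 3 in each of 4 groups. Every group was first deprived of fetal calf serum (FCS) and glucose for 24 h, and the starved group was collected at that point. The 3 refed groups were then given medium with 10% FCS and 5 g/l glucose and collected 4 h later, in the presence of the solvent DMSO, 100 µM dimethyl amiloride (DMA, an inhibitor of Na+/H+ exchange) or 10 µM C646 (an inhibitor of p300 and CBP, which acetylate histones). No group that kept serum and glucose was analysed here. The labels do not say whether libraries of a group are separate cultures, so p-values measure only the spread between these samples.

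Secretory and membrane proteins are folded in the ER by chaperones of the Hsp70 and Hsp90 classes, by lectin chaperones that bind sugar chains, and by isomerases that form and rearrange disulfide bonds. Proteins that fail to fold are passed through the ER membrane to the cytosol, ubiquitinated and destroyed by the proteasome, which is called ER-associated degradation. The sensors ATF6, ERN1 (IRE1) and EIF2AK3 (PERK) report a shortage of folding capacity to the nucleus and the ribosome, in what is called the unfolded protein response. Many chaperone and degradation genes are textbook targets of ATF6 and of XBP1, the transcription factor whose messenger RNA is spliced by ERN1. Glucose feeds the sugar chains of secretory proteins, and glucose deprivation is the condition under which the glucose-regulated proteins HSPA5 and HSP90B1 were named.

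The libraries held 14910516 to 28968510 expected counts, and all 40 members passed the filter on low counts. Levels are given as CPM (counts scaled to a TMM-adjusted library total of 1000000) between libraries and as TPM (length-corrected, with a library total of 1000000) between genes. Along the second principal component (14.6% of the variance) library 3 of each of the 4 groups, at -36.7 to -27.6, stood apart from the other 9 libraries, at -2.66 to 27.1. Solvent library 1 stood apart from the others along the third component (13.4%). Of the 10 markers of retinal pigment epithelium, MITF was read at 17.4 to 55.4 CPM, OTX2 at 6.76 to 21.9 CPM, BEST1 at 0.625 to 3.92 CPM and PMEL at 0.402 to 0.823 CPM. SERPINF1 ran from 0 to 1.07 CPM, RPE65, RLBP1, TYR and TYRP1 reached at most 0.293 CPM, and TTR was at 0 in every library. Of the 5 markers of epithelium, KRT8 and KRT18 were at 219.8 CPM or more in every library, and KRT19, CDH1 and EPCAM reached at most 0.2975 CPM. Of the 6 markers of mesenchyme, VIM, FN1 and CDH2 were at 265.8 CPM or more in every library and THY1 at 60.7 to 247.4 CPM. COL1A1 ran from 1.14 to 9.53 CPM and COL1A2 from 0 to 0.134 CPM. The summed level of the pigment epithelium markers was 64.3 to 78.2 CPM in starved and 26.6 to 49.6 CPM in solvent libraries, and its part in the results was not tested. The summed markers of blood stayed under 0.709 CPM and those of endothelium under 1.48 CPM in every library. In bulk RNA, fewer cells that express a gene and less of its RNA per cell cannot be told apart.

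The comparison of refed cells in solvent with starved cells asks how this machinery stands 4 h after serum and glucose return. Relative to the bulk of genes, 25 of 40 members fell in the refed cells and 1 rose (edgeR, adjusted p under 0.05), and with scaling to spike-in controls 9 fell and 2 rose, where 1.24% of all genes tested fell and 21.1% rose. The gene that rose was FKBP14, a prolyl isomerase of the ER, and 14 were not called. With TMM, 24.3% of all 15263 genes tested were called, 11.7% lower and 12.6% higher. The falls ranged from HERPUD1 at -4.36 to DERL1 at -0.34 on the log2 scale. The median member stood at -0.55 and the median of all genes tested at 0.00. In 28 members every solvent library was below every starved library, against 19.5% of all genes tested, and in 2 members every solvent library was above, against 20.5%. The summed level of the 40 members was 37993, 27303 and 32330.2 CPM in the starved libraries and 20393, 17200.2 and 21429 CPM in the solvent libraries, so the groups did not overlap. Without HSPA5, the chaperone with the largest drop in CPM, the sums were 28393, 21934 and 24984 CPM and 18203, 15609 and 18229.7 CPM, also without overlap.

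These changes are relative to the bulk of genes, as TMM sets them. When libraries were scaled to the spike-in controls instead, the median of all genes rose by 0.60 on the log2 scale. With that scaling 22.4% of all genes were called, nearly all of them higher. The 2 members then called higher were FKBP14 and EDEM3, and the median member stood at 0.03. The amount of spike-in added is not given in the sources used here. Under that scaling 10 of the 26 calls were kept, those of HSPA5, DNAJB9, DNAJC3, FKBP14, ERO1B, HERPUD1, SEL1L, SYVN1, XBP1 and ERN1, and CALR, CANX, PDIA4, DERL1, OS9 and MBTPS1 took values above 0. Of the 26 calls, 19 held without any 1 library.

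**Figure D1:**
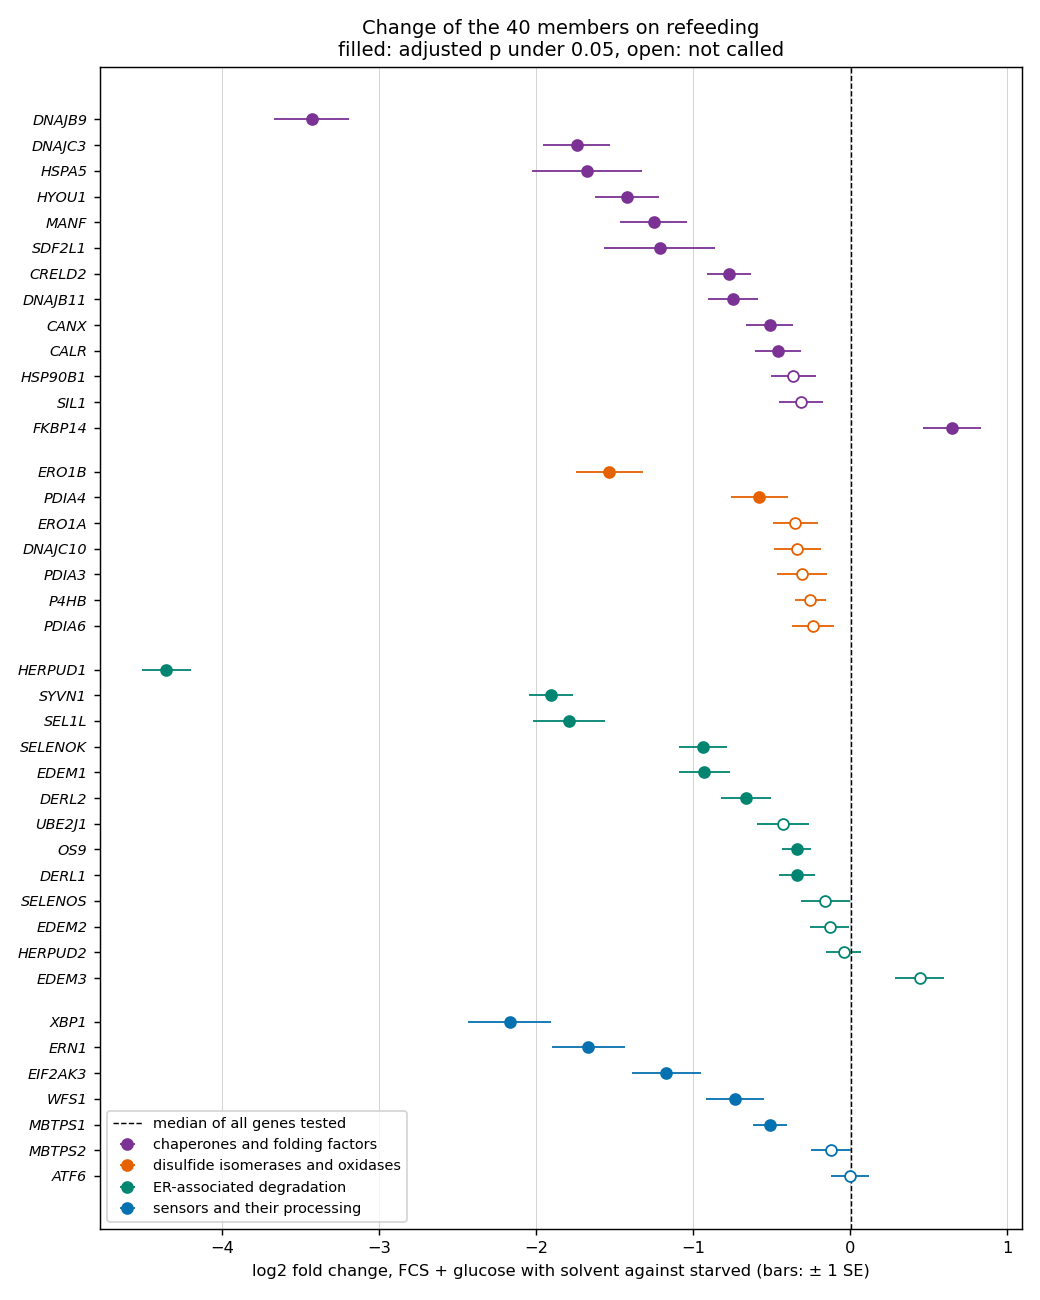
Log2 fold change of the 40 members in refed cells with solvent against starved cells, by role, with bars of 1 SE to each side. Filled points passed an adjusted p of 0.05 and open points did not. HERPUD1 (-4.36) and DNAJB9 (-3.43) lie farthest to the left, 25 filled points are below 0 and FKBP14 is above it.

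Among the 13 chaperones and folding factors, 10 fell, 1 rose and 2 were not called, with a median log2 change of -0.77 (-0.14 with spike-in scaling, where 3 fell and 1 rose). In this role DNAJB9 and DNAJC3, co-chaperones of HSPA5 that carry a J domain, had the largest falls. DNAJB9 (ERdj4; chromosome 7, 108569568 to 108574850, plus strand, GRCh38, GENCODE 29), which delivers misfolded proteins to HSPA5 and holds ERN1 inactive, was read at 145, 101 and 117 CPM in the starved libraries and 12.1, 10.9 and 10.8 CPM in the solvent libraries. Every solvent library lay far below every starved library, a log2 fold change of -3.43 ± 0.24 (SE; edgeR adjusted p = 6.7e-06). DNAJC3 (p58IPK), an inhibitor of the kinase EIF2AK3 that also binds unfolded proteins in the lumen, was read at 341, 217 and 213 CPM in the starved libraries and 82.3, 63.9 and 84.5 CPM in the solvent libraries. Its log2 fold change was -1.74 ± 0.21 (SE; edgeR adjusted p = 0.00015), with no overlap. DNAJB11 (ERdj3), a soluble partner of HSPA5, was read at 336, 223 and 264 CPM in the starved libraries and 165, 140.1 and 187 CPM in the solvent libraries and fell by less, with a log2 fold change of -0.74 ± 0.16 (SE; edgeR adjusted p = 0.0046). Its counts are uncertain, because over 20% of its exons overlap other genes.

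HSPA5 (BiP; chromosome 9, 125234853 to 125241330, minus strand), the main Hsp70 chaperone of the lumen and the switch that keeps the sensors silent, was read at 9599.9, 5369 and 7347 CPM in the starved libraries and 2190.0, 1591 and 3199.6 CPM in the solvent libraries. The groups did not overlap, although each was widely spread. The log2 fold change was -1.68 ± 0.35 (SE; edgeR adjusted p = 0.0047). HYOU1 (GRP170), its nucleotide exchange factor, fell alongside it, from 1641, 1086 and 936 CPM to 556, 378 and 433 CPM, a log2 fold change of -1.42 ± 0.20 (SE; edgeR adjusted p = 0.00037). SIL1, the other exchange factor of HSPA5, did not pass the threshold, at 43.1, 42.8 and 40.2 CPM in the starved libraries and 27.9, 34.01 and 39.8 CPM in the solvent libraries (log2 fold change -0.31 ± 0.14 SE, edgeR adjusted p = 0.13). SDF2L1, a partner of DNAJB11, was read at 107, 68.95 and 59.1 CPM in the starved libraries and 19.3, 30.05 and 52.2 CPM in the solvent libraries, a log2 fold change of -1.21 ± 0.36 (SE; edgeR adjusted p = 0.026). The groups did not overlap but its solvent libraries were widely scattered, and the call was lost without starved library 1 or 2 or solvent library 1 or 2 (log2 -1.67 to -0.92, largest adjusted p = 0.11).

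The small secreted ER proteins MANF and CRELD2 also fell. MANF, a neurotrophic factor that binds HSPA5, was read at 464, 338 and 389.6 CPM in the starved libraries and 143, 147 and 210.3 CPM in the solvent libraries (log2 fold change -1.25 ± 0.22 SE, edgeR adjusted p = 0.0013). CRELD2, an ER stress-inducible protein with EGF-like repeats, was read at 197, 164 and 145 CPM in the starved libraries and 85.4, 91.9 and 119 CPM in the solvent libraries (log2 fold change -0.77 ± 0.14 SE, edgeR adjusted p = 0.0017). Neither gene overlapped between the groups. The glycoprotein chaperones moved less. Calreticulin (CALR) was read at 4117, 3485 and 3989.9 CPM in the starved libraries and 2776, 2441 and 3231 CPM in the solvent libraries, and its membrane-bound relative calnexin (CANX) at 2788, 2288 and 2828 CPM in the starved libraries and 1889.7, 1654 and 1995 CPM in the solvent libraries. Their log2 fold changes were -0.46 ± 0.15 (SE; edgeR adjusted p = 0.037) and -0.51 ± 0.15 (SE; edgeR adjusted p = 0.023). Neither overlapped between the groups, but both calls ended without starved library 1 or 3 or solvent library 1 or 2, where CALR ranged over -0.56 to -0.36, largest adjusted p = 0.14, and CANX over -0.60 to -0.44, largest adjusted p = 0.091.

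HSP90B1 (GRP94), the Hsp90 chaperone of the lumen, was not called although its groups did not overlap. It was read at 8251, 6365 and 7787 CPM in the starved libraries and 6214, 5310.1 and 5904 CPM in the solvent libraries, a log2 fold change of -0.36 ± 0.14 (SE; edgeR adjusted p = 0.084). FKBP14, which acts on proline bonds of collagens, was the only member called higher. It was read at 40.5, 25.7 and 26.4 CPM in the starved libraries and 58.2, 42.1 and 44.96 CPM in the solvent libraries, with every solvent library above every starved one (log2 fold change 0.65 ± 0.18 SE, edgeR adjusted p = 0.021). That call ended without starved library 2 or 3 or solvent library 1 (log2 0.49 to 0.89, largest adjusted p = 0.1).

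Of the 7 disulfide isomerases and oxidases, 2 fell (ERO1B and PDIA4) and 5 were not called, with a median log2 change of -0.34 (0.24 with spike-in scaling, where only ERO1B fell). The oxidases ERO1A and ERO1B recharge the isomerases with oxidising equivalents. ERO1B was read at 41.7, 28.6 and 34.01 CPM in the starved libraries and 12.9, 9.75 and 13.4 CPM in the solvent libraries, without overlap, a log2 fold change of -1.53 ± 0.21 (SE; edgeR adjusted p = 0.0003). ERO1A, its close relative, was read at 158, 128 and 161 CPM in the starved libraries and 135, 97.98 and 118 CPM in the solvent libraries and overlapped (log2 fold change -0.35 ± 0.14 SE, edgeR adjusted p = 0.099). PDIA4 (ERp72), a thioredoxin-like isomerase, was read at 1334, 878 and 778 CPM in the starved libraries and 792, 592 and 616 CPM in the solvent libraries. Starved library 1 was the high one and the groups overlapped, and the log2 fold change of -0.58 ± 0.18 (SE; edgeR adjusted p = 0.033) was not called without it (-0.31, adjusted p = 0.17), nor without solvent library 2 (-0.50) or 3 (-0.52).

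The other isomerases did not pass the threshold. P4HB, the founding protein disulfide isomerase, was read at 945, 837 and 832 CPM in the starved libraries and 704, 707 and 781 CPM in the solvent libraries (log2 fold change -0.25 ± 0.10 SE, edgeR adjusted p = 0.079), with no overlap between its groups. PDIA3 (ERp57), the isomerase that works with calnexin and calreticulin, had a log2 fold change of -0.30 ± 0.16 (SE; edgeR adjusted p = 0.19). PDIA6 (P5), which binds HSPA5 and attenuates ERN1, had -0.24 ± 0.13 (SE; edgeR adjusted p = 0.22), and both are uncertain for shared or overlapping sequence. DNAJC10 (ERdj5), a reductase that opens disulfides before degradation, had -0.34 ± 0.15 (SE; edgeR adjusted p = 0.12). The intervals of the changes of these 4 genes (95%) lay between -0.66 and 0.05 on the log2 scale.

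Of the 13 genes of ER-associated degradation, 8 fell and 5 were not called, with a median log2 change of -0.43 (0.14 with spike-in scaling, where 3 fell and EDEM3 rose). HERPUD1 (Herp; chromosome 16, 56932048 to 56944863, plus strand), a membrane protein that organises the HRD1 ubiquitin ligase complex, changed more than any other member. It was read at 691, 500.4 and 514 CPM in the starved libraries and 26.04, 29.2 and 28.05 CPM in the solvent libraries. The starved libraries were at least 500.4 CPM and the solvent libraries at most 29.2 CPM, a log2 fold change of -4.36 ± 0.16 (SE; edgeR adjusted p = 4.2e-09). Its paralogue HERPUD2 was read at 29.7, 28.97 and 30.9 CPM in the starved libraries and 29.1, 28.01 and 29.9 CPM in the solvent libraries, with overlapping groups (log2 fold change -0.04 ± 0.11 SE, edgeR adjusted p = 0.82, 95% interval -0.28 to 0.20).

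The core of the same ligase complex fell with HERPUD1. SYVN1 (HRD1), the ubiquitin ligase itself, was read at 131, 118 and 99.5 CPM in the starved libraries and 28.1, 32.4 and 32.6 CPM in the solvent libraries (log2 fold change -1.91 ± 0.14 SE, edgeR adjusted p = 7.1e-06). SEL1L, its adaptor and stabiliser, was read at 785, 568 and 543 CPM in the starved libraries and 169, 152 and 227 CPM in the solvent libraries (log2 fold change -1.79 ± 0.23 SE, edgeR adjusted p = 0.00019). Both fell without overlap. The derlins, rhomboid-like proteins of the channel through which substrates leave the ER, fell by less. DERL2 was read at 91.04, 70.1 and 92.9 CPM in the starved libraries and 56.7, 46.9 and 56.8 CPM in the solvent libraries (log2 fold change -0.66 ± 0.16 SE, edgeR adjusted p = 0.0082), and DERL1 at 98.6, 77.3 and 86.9 CPM in the starved libraries and 70.8, 63.8 and 73.3 CPM in the solvent libraries (log2 fold change -0.34 ± 0.11 SE, edgeR adjusted p = 0.044). Neither derlin overlapped between the groups. The call of DERL1 was lost when any library other than starved library 2 was left out (log2 -0.42 to -0.24, largest adjusted p = 0.18).

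Mannosidases and lectins mark misfolded glycoproteins for removal. EDEM1, a mannosidase-like protein of this step, was read at 199.6, 178 and 141 CPM in the starved libraries and 100.3, 72.4 and 99.6 CPM in the solvent libraries and fell (log2 fold change -0.93 ± 0.16 SE, edgeR adjusted p = 0.0013). EDEM2 and EDEM3 were not called, at -0.13 ± 0.12 (SE; edgeR adjusted p = 0.49) and 0.44 ± 0.16 (SE; edgeR adjusted p = 0.054). EDEM3 had the opposite sign, with 47.2, 41.8 and 35.00 CPM in starved and 65.01, 54.4 and 49.5 CPM in solvent libraries, which did not overlap. OS9, the lectin that hands trimmed glycoproteins to SEL1L, was read at 449, 409 and 403 CPM in the starved libraries and 343, 325 and 328 CPM in the solvent libraries (log2 fold change -0.34 ± 0.09 SE, edgeR adjusted p = 0.017). It did not overlap between the groups, and its call ended without starved library 1 or solvent library 2 or 3 (log2 -0.37 to -0.29, largest adjusted p = 0.067). Of the selenoproteins of this system, SELENOK was read at 48.3, 37.3 and 51.9 CPM in the starved libraries and 24.3, 23.1 and 24.4 CPM in the solvent libraries and fell (log2 fold change -0.94 ± 0.15 SE, edgeR adjusted p = 0.00092). SELENOS, which anchors the ATPase that pulls substrates out of the membrane, had -0.16 ± 0.16 (SE; edgeR adjusted p = 0.51), and the ubiquitin-conjugating enzyme UBE2J1 had -0.43 ± 0.16 (SE; edgeR adjusted p = 0.074).

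Of the 7 sensors and their processing proteins, 5 fell and 2 were not called, with a median log2 change of -0.73 (-0.08 with spike-in scaling, where XBP1 and ERN1 fell). The branch of ERN1 and XBP1 changed most. ERN1 (IRE1; chromosome 17, 64039142 to 64130819, minus strand), the kinase and nuclease that splices XBP1, was read at 34.3, 30.1 and 31.01 CPM in the starved libraries and 8.61, 8.92 and 12.5 CPM in the solvent libraries (log2 fold change -1.67 ± 0.23 SE, edgeR adjusted p = 0.0003). XBP1 (chromosome 22, 28794555 to 28800597, minus strand) was read at 233, 179.6 and 210.4 CPM in the starved libraries and 41.5, 37.5 and 59.6 CPM in the solvent libraries (log2 fold change -2.17 ± 0.26 SE, edgeR adjusted p = 0.00015). Neither overlapped between the groups. EIF2AK3, the kinase that slows translation under ER stress, was read at 31.3, 23.03 and 30.7 CPM in the starved libraries and 15.2, 12.8 and 9.69 CPM in the solvent libraries and fell (log2 fold change -1.17 ± 0.22 SE, edgeR adjusted p = 0.0021).

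The transcript of ATF6, the membrane-bound factor released by cleavage in the Golgi, was read at 137, 114 and 108 CPM in the starved libraries and 128, 110.4 and 120.1 CPM in the solvent libraries. The log2 fold change was 0.00 ± 0.12 (SE; edgeR adjusted p = 1), with a 95% interval of -0.27 to 0.27. The proteases that cleave it differed in their calls. MBTPS1 (site-1 protease) was read at 149.6, 142 and 156 CPM in the starved libraries and 114, 96.2 and 103 CPM in the solvent libraries and fell (log2 fold change -0.51 ± 0.11 SE, edgeR adjusted p = 0.0038). MBTPS2 (site-2 protease) was read at 58.3, 55.7 and 63.5 CPM in the starved libraries and 61.04, 50.5 and 51.5 CPM in the solvent libraries, with overlap (log2 fold change -0.12 ± 0.12 SE, edgeR adjusted p = 0.52). WFS1 (wolframin), an ER membrane protein that restrains ATF6, was read at 74.9, 72.6 and 58.96 CPM in the starved libraries and 30.4, 38.97 and 55.1 CPM in the solvent libraries and fell (log2 fold change -0.73 ± 0.19 SE, edgeR adjusted p = 0.012), with the highest solvent library just under the lowest starved one.

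**Figure D2:**
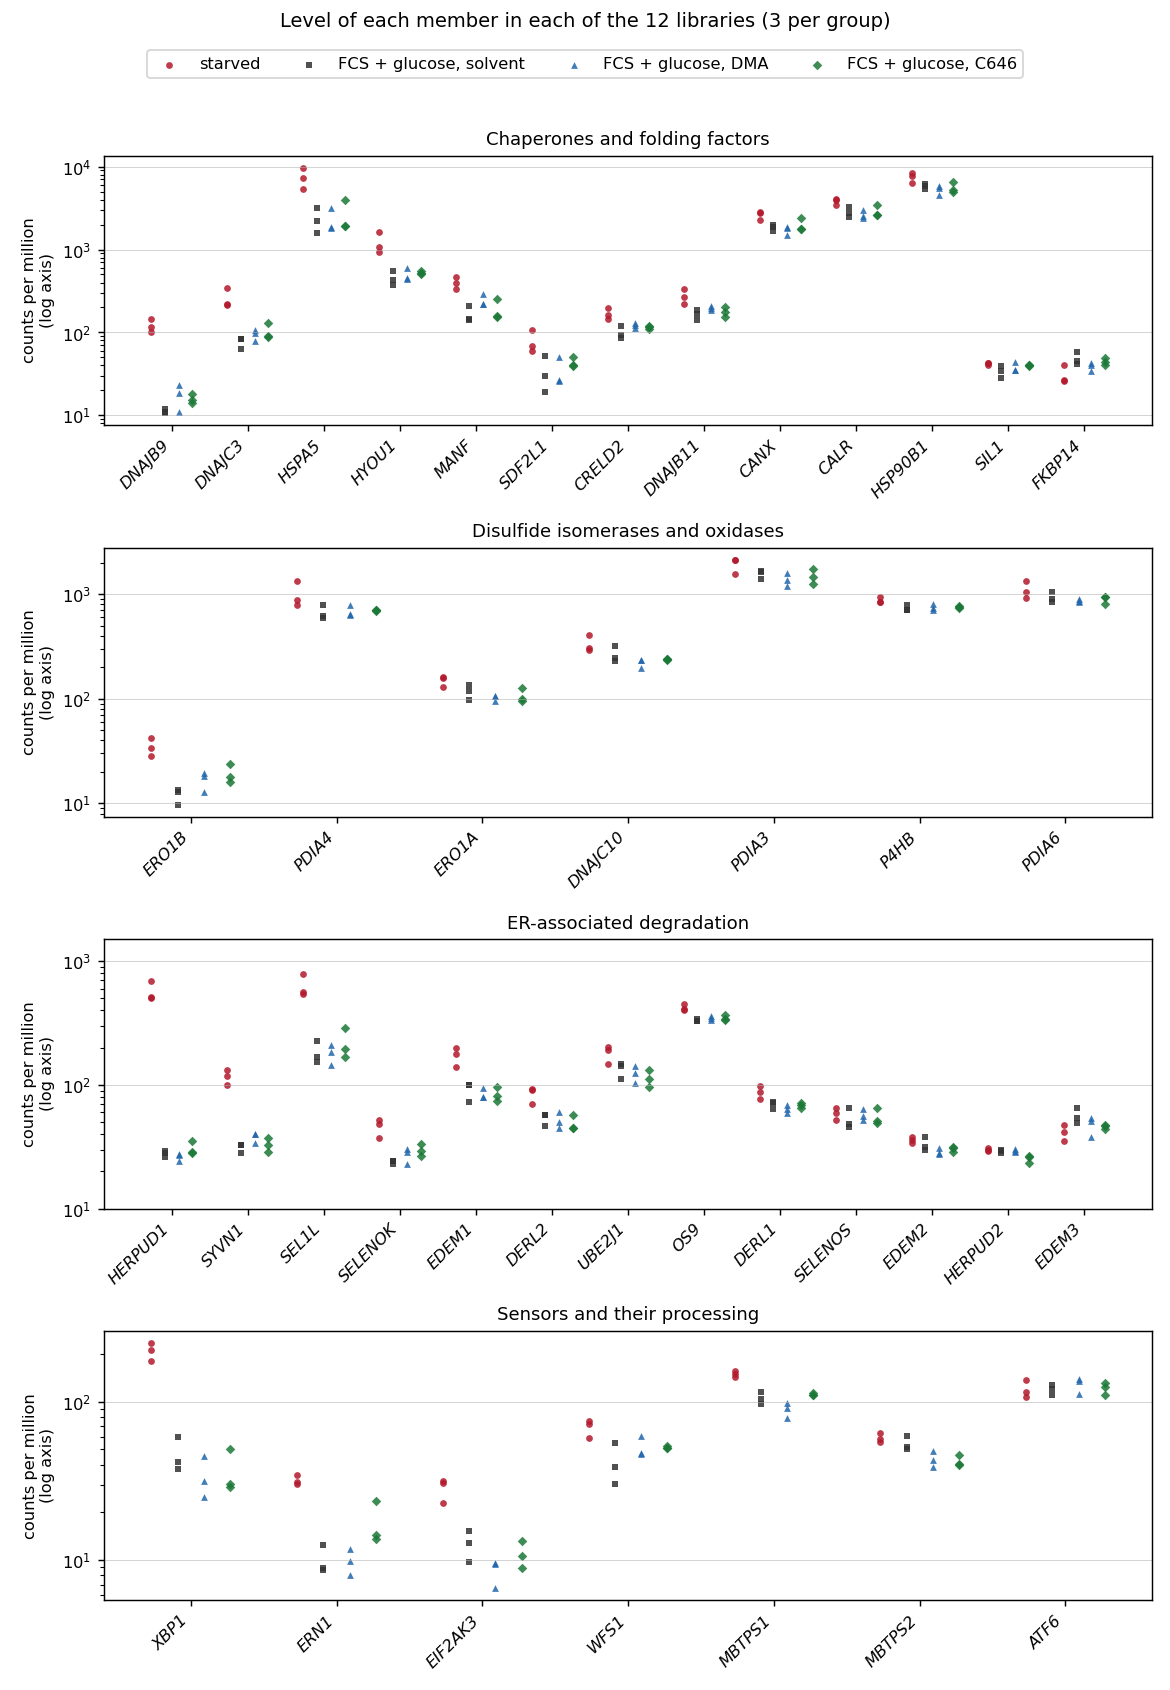
Level of each member in each of the 12 libraries, in CPM on a log axis, with 1 point per library and members ordered within each role by their change. Every refed library lies below every starved library for DNAJB9, HERPUD1, SYVN1, SEL1L, XBP1 and ERN1, and the 4 groups overlap for SELENOS and ATF6.

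The message of XBP1 allows a separate readout of ERN1, the share of XBP1 molecules that lack the intron ERN1 cuts in the cytosol. The intron is 26 bases long and lies at chr22:28796124-28796149 on the minus strand (GRCh38, GENCODE 29 transcripts), inside the coding part of XBP1. It is shown with its flanks because the cut removes these bases alone, in capitals:
XBP1 unspliced: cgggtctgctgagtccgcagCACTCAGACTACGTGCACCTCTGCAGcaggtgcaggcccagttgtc
XBP1 spliced: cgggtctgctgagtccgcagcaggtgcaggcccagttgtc
Of the XBP1 counts, the forms without the intron were estimated at 3.49, 11.01 and 21.5% in the starved libraries and 6.16, 2.61 and 25.1% in the solvent libraries. The DMA libraries held 10.7, 4.52 and 2.75% and the C646 libraries 34.5, 4.14 and 0.0178%. Libraries of the same group differed severalfold, and the groups overlapped. No difference between groups was detected by an exact two-sided permutation test (p = 0.9 for solvent against starved, 0.7 for DMA against solvent, 0.9 for C646 against solvent and 0.9 for DMA against C646, where 3 libraries against 3 cannot go below 0.10). The share is the deposited estimate over transcripts that also differ outside the intron, and no reads across the junction were counted here. The transcripts without the intron are XBP1-202 (1131 bases) and XBP1-207 (1794 bases), and those with it have 1690 to 2173 bases. XBP1-202 was at 0 counts in every solvent library, and XBP1-207 at 0.00196 counts or less in every DMA library.

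The promoters of members were read for the elements that ATF6 and XBP1 are known to bind. RefSeq windows (GRCh38.p14) of 250 bases before to 50 bases after a gene's start were found for 37 of 40 members. The ER stress response element (ERSE) was searched as CCAAT, 9 bases of any kind and CCACG, and its second form (ERSE-II) as ATTGG, 1 base of any kind and CCACG, on both strands. ERSE was present in 8 members (10 of 43 member windows) and in 0.0769% of all 35116 windows. ERSE-II was present in 3 members (3 of 43 member windows) and in 0.0541% of all windows. Together they were found in 11 members (13 of 43 member windows), against 0.131% of all windows. The list holds textbook targets of ATF6 and XBP1, so more matches than in all windows are no result of these data. The stretches below show members that fell, followed by HSP90B1 and PDIA6, which were not called, each read along its gene's strand with the element in capitals:
HERPUD1 (chr16:56932010-56932047, plus strand, ERSE-II): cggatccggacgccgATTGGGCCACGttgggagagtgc
HYOU1 (chr11:119057365-119057405, minus strand, ERSE-II): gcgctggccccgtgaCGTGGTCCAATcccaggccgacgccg
SDF2L1 (chr22:21642099-21642139, plus strand, ERSE-II): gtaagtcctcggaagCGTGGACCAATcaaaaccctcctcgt
XBP1 (chr22:28800598-28800636, minus strand, ERSE): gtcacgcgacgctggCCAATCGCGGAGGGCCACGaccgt
HSPA5 (chr9:125241376-125241424, minus strand, ERSE): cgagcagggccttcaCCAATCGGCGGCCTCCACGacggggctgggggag
ERO1B (chr1:236282168-236282208, minus strand, ERSE): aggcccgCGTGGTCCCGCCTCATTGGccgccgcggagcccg
CRELD2 (chr22:49918539-49918587, plus strand, ERSE): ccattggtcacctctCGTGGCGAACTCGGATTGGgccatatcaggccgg
CALR (chr19:12938369-12938417, plus strand, ERSE): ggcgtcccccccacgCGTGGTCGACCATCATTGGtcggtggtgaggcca
HSP90B1 (chr12:103930201-103930249, plus strand, ERSE): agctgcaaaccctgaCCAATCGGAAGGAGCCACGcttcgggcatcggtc
PDIA6 (chr2:10812838-10812886, minus strand, ERSE): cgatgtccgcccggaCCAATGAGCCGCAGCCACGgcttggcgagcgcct
The element ended 34 bases before the start of XBP1, 48 bases before that of HSPA5 and 107 bases before that of HERPUD1. HYOU1 carried ERSE-II 2 times and HSP90B1 carried ERSE 2 times in the window. CANX held 1 ERSE, seen in several overlapping windows of its alternative starts.

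Members with and without the element are described side by side, and no test was made between them. Of the 11 members with ERSE or ERSE-II, 9 fell and 2 were not called (HSP90B1 and PDIA6), with a median log2 change of -1.21 (-0.50 with spike-in scaling). Of the 26 members with neither, 15 fell and 11 were not called, with a median of -0.54 (0.03 with spike-in scaling). DNAJB9, SYVN1, SEL1L and DNAJC3 were among the strongest falls without a match in this window. The unfolded protein response element (TGACG followed directly by TGG) was present in DNAJC10, HYOU1 and UBE2J1 and in 0.729% of all windows, and in HYOU1 it overlaps ERSE-II. The element bound by pairs of C/EBP and ATF4 (TGATG, 1 base of any kind and AAT) had no match among the members and was present in 0.991% of windows. A match is only an occurrence of these letters, and a missing match says only that they are not in this window.

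**Figure D3:**
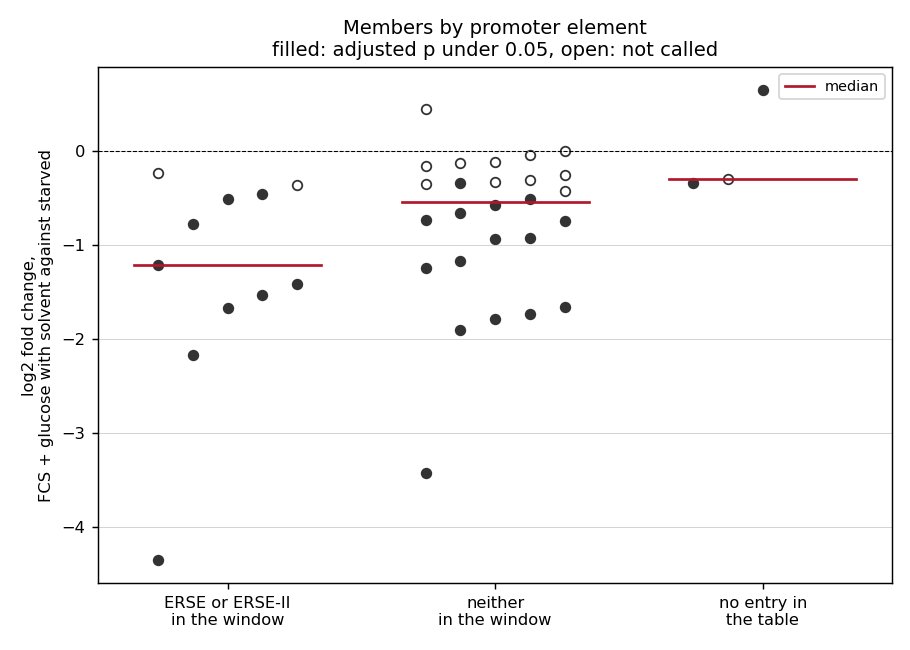
Log2 fold change of each member in refed cells with solvent against starved cells, grouped by whether its promoter window holds ERSE or ERSE-II. Filled points passed an adjusted p of 0.05, horizontal position within a class has no meaning, and red lines are medians (-1.21 for the 11 members with the element and -0.54 for the 26 without).

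Members related by sequence or role were also compared with each other within each library. The log2 ratio of their CPM in each library was compared for 10 pairs chosen after the values were seen. Shifts, lack of overlap and p-values therefore only describe these pairs. A ratio within a library does not depend on how libraries are scaled, and only its shift is read here, since CPM are not corrected for length. The ratio of HERPUD1 to HERPUD2 went from 4.23 ± 0.27 to -0.06 ± 0.11 (SD, 3 libraries each). That of ERN1 to ATF6 went from -1.90 ± 0.10 to -3.59 ± 0.32, and that of EDEM1 to EDEM3 from 2.06 ± 0.05 to 0.68 ± 0.30. HSPA5 to HSP90B1 went from -0.04 ± 0.24 to -1.38 ± 0.44, ERO1B to ERO1A from -2.11 ± 0.17 to -3.29 ± 0.14, and SELENOK to SELENOS from -0.37 ± 0.15 to -1.13 ± 0.26. In each of these pairs the 2 groups did not overlap. The same held for EDEM1 to EDEM2, DERL2 to DERL1 and MBTPS1 to MBTPS2. These 9 pairs gave p = 0.10 by an exact two-sided permutation test, the smallest that 3 against 3 libraries allow, and 0.11 after adjustment over the 10 pairs, so none could pass 0.05. The ratio of CALR to CANX went from 0.56 ± 0.06 to 0.60 ± 0.08 and overlapped (exact p = 0.6).

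**Figure D4:**
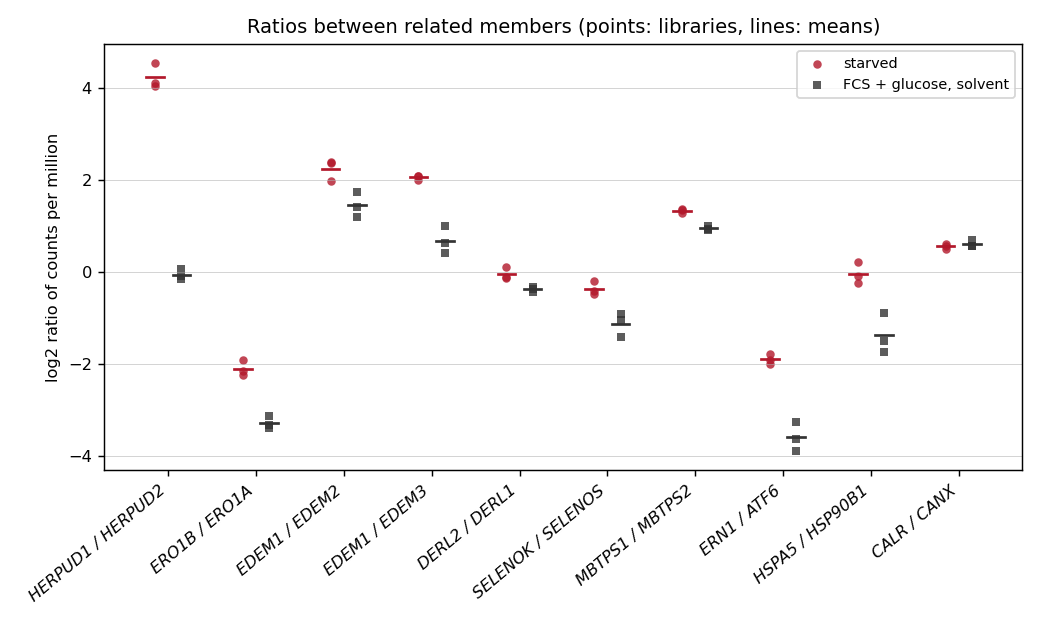
Log2 ratio of the CPM of related members in each starved and each solvent library, with lines at the group means. The ratio of HERPUD1 to HERPUD2 drops from 4.23 to -0.06, and that of CALR to CANX is 0.56 in starved and 0.60 in solvent libraries.

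The members spanned a wide range of levels. In starved cells HSP90B1 led at 4915 ± 817 TPM (SD, n = 3), followed by CALR at 3522 ± 321, HSPA5 at 2665 ± 858 and CANX at 1513 ± 138 TPM. The means of CALR and HSPA5, of CANX and PDIA3 (1437 ± 227 TPM), of PDIA3 and MANF (1228 ± 206 TPM), and of P4HB and HERPUD1 were closer than 1 SD of the more variable gene of the pair. At the other end stood ERN1 at 6.65 ± 1.31 TPM, EDEM3 at 10.1 ± 2.65 and ERO1B at 10.9 ± 3.50 TPM. HERPUD1 measured 859 ± 167 TPM in starved cells, near P4HB at 909.9 ± 77.1, and 47.5 ± 8.55 TPM in solvent cells, where P4HB measured 884 ± 138. In solvent cells HSP90B1 still led at 3921 ± 509.8 TPM, whereas HSPA5 at 842 ± 297 TPM lay below PDIA3 at 1171 ± 118. By role, the summed chaperones measured 28071, 19773 and 24142 CPM in starved and 14218, 11935 and 15509.8 CPM in solvent libraries. The disulfide genes summed to 6330.0, 4650.5 and 5246 and 4633, 3891 and 4322 CPM. Degradation genes summed to 2874, 2263 and 2284 and 1142, 1019 and 1186 CPM, and sensors to 718, 617 and 658 and 399, 355 and 412 CPM.

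The next comparisons ask whether inhibiting Na+/H+ exchange or p300 and CBP during refeeding moved these genes from where solvent left them. The median log2 change of the members was -0.02 with DMA and 0.07 with C646 against solvent. With edgeR, and without a block for replicate number, no member was called between DMA and solvent. There 1.75% of all genes were called. An unadjusted p under 0.05 was found for 6 of 40 members, beside 2960 of all 15263 genes tested. None was called between C646 and solvent either (1.21% of all genes), and 3 members had an unadjusted p under 0.05, beside 2567 of all genes. Between DMA and C646 none was called (2.89% of all genes), and 2 members had an unadjusted p under 0.05, beside 2651 of all genes. DESeq2 called 0, 2 and 1 members in these comparisons, where it called 7.79%, 6.46% and 7.34% of all genes. The DMA and C646 comparisons share the solvent libraries. HERPUD1 was read at 26.04, 29.2 and 28.05 CPM with solvent, 24.2, 27.7 and 27.2 CPM with DMA and 28.3, 28.5 and 35.4 CPM with C646, all far below the starved libraries. HSPA5 was read at 2190.0, 1591 and 3199.6 CPM with solvent, 1821, 1891 and 3200.4 CPM with DMA and 1939, 1942 and 3939.6 CPM with C646. The 95% intervals of all 40 members come from the edgeR model without the block. They lay between -1.03 and 1.14 for DMA against solvent and between -0.89 and 1.27 for C646 against solvent on the log2 scale. For HSPA5 they were -0.75 to 0.73 and -0.58 to 0.90, among the widest.

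Values of a few members stood apart in single comparisons. Without overlap between groups, 2 of the 40 members were lower and 3 higher with DMA against solvent. With C646 against solvent 3 were lower and 5 higher, and with DMA against C646 3 were lower and 1 higher. The share of all genes without overlap is not given for these comparisons. The counts are therefore only a description and cannot be read as more or fewer than among all genes. The labels give only replicate numbers, but same-numbered libraries of the refed groups deviated together (correlations of 0.28 to 0.48). With the number as a block, 1, 2 and 2 of the 40 members were called for DMA against solvent, C646 against solvent and DMA against C646. The shares of all genes called were 10.2%, 7.86% and 9.81% in the same order. ERN1 was read at 8.61, 8.92 and 12.5 CPM with solvent, 9.95, 8.003 and 11.7 CPM with DMA and 13.5, 14.3 and 23.6 CPM with C646. Every C646 library was above every library of the other refed groups. C646 against solvent gave 0.77 ± 0.23 (SE; edgeR adjusted p = 0.11), and with the replicate block 0.76 ± 0.17, adjusted p = 0.018. DMA against C646 gave -0.79 ± 0.23 (SE; edgeR adjusted p = 0.085), and with the block -0.78 ± 0.17, adjusted p = 0.013. ERO1B was read at 12.9, 9.75 and 13.4 CPM with solvent, 12.96, 18.2 and 19.4 CPM with DMA and 17.7, 16.01 and 23.6 CPM with C646. Against solvent, C646 gave 0.67 ± 0.21 (SE; edgeR adjusted p = 0.13) and, with the block, 0.66 ± 0.18, adjusted p = 0.042, and all C646 libraries were above all solvent libraries. Neither gene was called against solvent with the block when solvent library 1 was left out (ERN1 0.69 ± 0.19, adjusted p = 0.084 and ERO1B 0.74 ± 0.21, adjusted p = 0.093).

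MANF was read at 143, 147 and 210.3 CPM with solvent, 220.4, 217 and 289 CPM with DMA and 155, 159.6 and 254 CPM with C646. All DMA libraries were above all solvent libraries, at 0.54 ± 0.21 (SE; edgeR adjusted p = 0.19), and with the block at 0.55 ± 0.14, adjusted p = 0.032 (0.47 ± 0.16, adjusted p = 0.14 with the block but without solvent library 1). MBTPS1 was read at 114, 96.2 and 103 CPM with solvent, 98.3, 79.4 and 90.8 CPM with DMA and 111, 110.1 and 113 CPM with C646. DMA against C646 gave -0.31 ± 0.11 (SE; edgeR adjusted p = 0.14) and with the block -0.32 ± 0.09, adjusted p = 0.037, without overlap. DNAJB9 was read at 12.1, 10.9 and 10.8 CPM with solvent, 10.9, 23.3 and 18.8 CPM with DMA and 15.2, 14.2 and 17.96 CPM with C646. One DMA library lay among the solvent libraries, and the difference of 0.65 ± 0.23 (SE; edgeR adjusted p = 0.14) was called without that library, DMA library 1 (0.90 ± 0.17, adjusted p = 0.032). EIF2AK3 was read at 15.2, 12.8 and 9.69 CPM with solvent, 9.59, 9.52 and 6.66 CPM with DMA and 13.2, 10.6 and 8.96 CPM with C646, with all DMA libraries below all solvent libraries (log2 fold change -0.55 ± 0.22 SE, edgeR adjusted p = 0.19). MBTPS2 was read at 61.04, 50.5 and 51.5 CPM with solvent, 48.6, 38.6 and 42.9 CPM with DMA and 39.9, 40.2 and 46.03 CPM with C646, below solvent in every library of both inhibitor groups (log2 fold change -0.33 ± 0.13 SE, edgeR adjusted p = 0.17 with DMA and log2 fold change -0.37 ± 0.13 SE, edgeR adjusted p = 0.15 with C646).

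**Figure D5:**
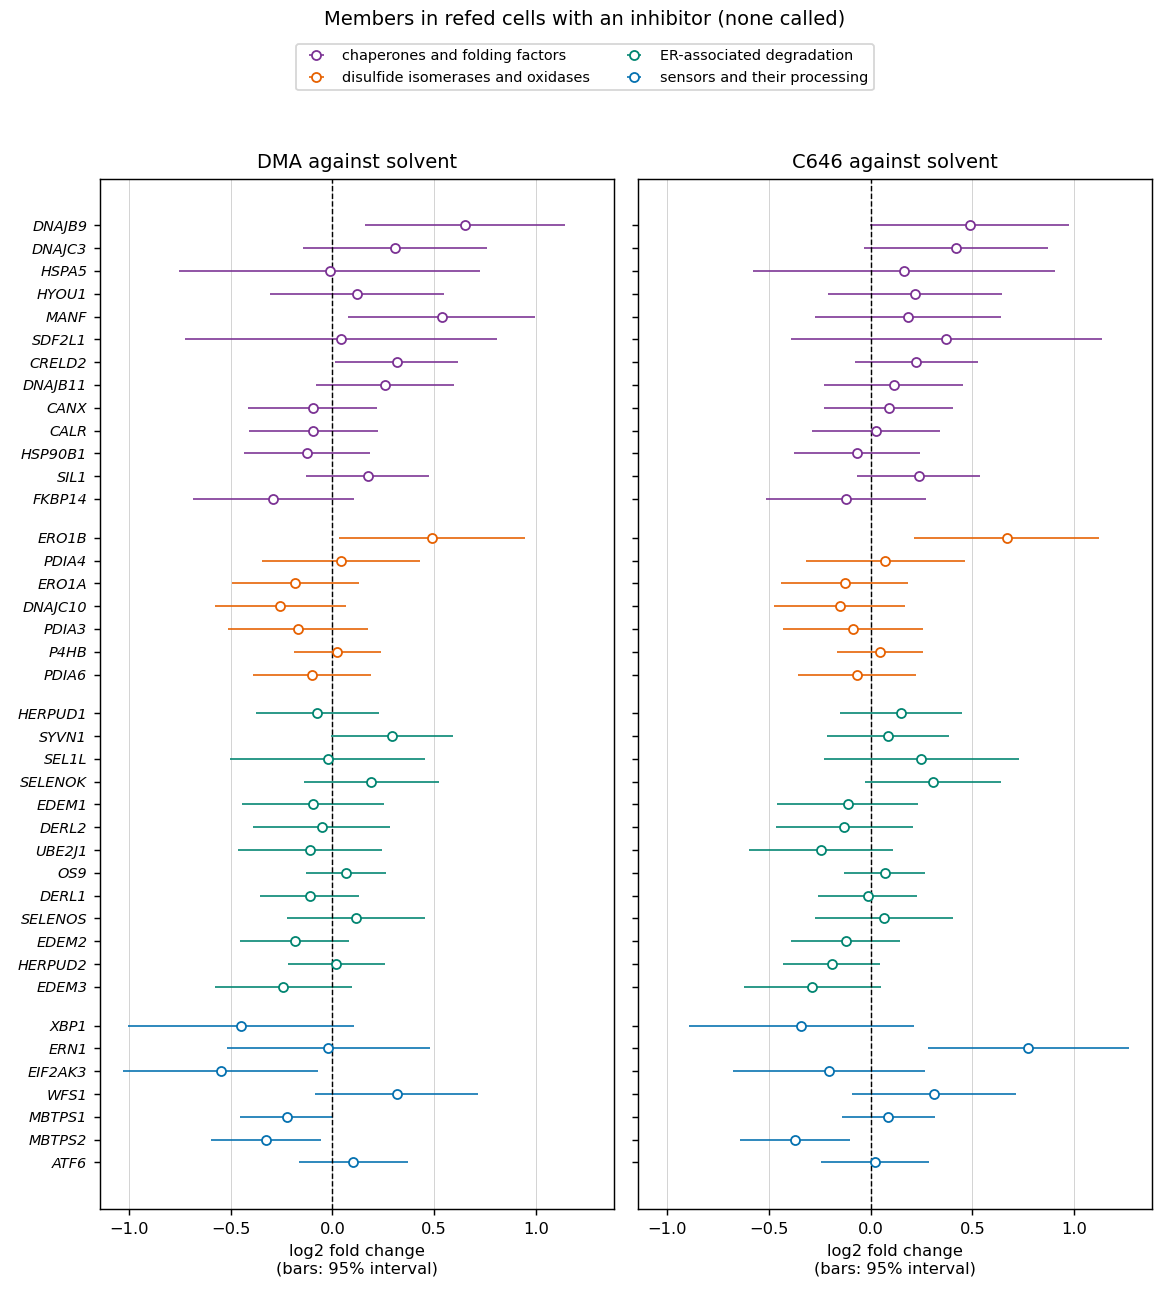
Log2 fold change of the 40 members with DMA (left) and with C646 (right) against solvent in refed cells, with 95% intervals as bars and members in the same order in both panels. Without the replicate block, as shown, no member passed an adjusted p of 0.05 in either. ERN1 lies at 0.77 with C646 and -0.02 with DMA, and both panels share the solvent libraries.

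Within the refed groups, the libraries numbered 3 held the highest level of many of these messages. HSPA5, for example, was highest in library 3 of the solvent, DMA and C646 groups (values above), and 17 of 40 members (42.5%) were highest in library 3 of all 3 groups, against 13.4% of all genes tested. They included CALR, CANX, SDF2L1, MANF, P4HB, SEL1L, XBP1 and ERN1. In the starved group library 3 was highest for 7 of 40 members (17.5%), against 37.7% of all genes tested. Library 3 of each group, the starved one included, also stood apart along the second principal component. The pattern was noticed after the values were seen, and the part of that component in it was not tested.

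Other genes of the same organelle and pathway, from lists that are not members, were counted in refed against starved cells beside the 24.3% of all genes called. Of the list named for EIF2AK3 and ATF4, the branch that acts through translation, 12 of 15 fell and 2 rose. The part of EIF2AK3 in this was not tested. The list had the lowest median log2 change of these lists, -1.51 (-0.82 with spike-in scaling). Its largest falls were DDIT3 (CHOP, a transcription factor of prolonged stress; log2 fold change -5.50 ± 0.32 SE, edgeR adjusted p = 1.5e-06), CHAC1 (a glutathione-degrading enzyme; log2 fold change -4.08 ± 0.44 SE, edgeR adjusted p = 5.7e-05) and TRIB3 (a pseudokinase; log2 fold change -2.93 ± 0.50 SE, edgeR adjusted p = 0.0015). DDIT3 was read at 227, 264 and 311 CPM in the starved libraries and 4.39, 7.13 and 6.20 CPM in the solvent libraries, and its counts are uncertain for overlapping genes. ATF4 itself was read at 919, 868 and 994 CPM in the starved libraries and 204, 245 and 307 CPM in the solvent libraries (log2 fold change -1.88 ± 0.21 SE, edgeR adjusted p = 8.8e-05) and is uncertain for sequence shared with other genes. Among transcription factors held in membranes like ATF6, and their regulators, 7 of 9 fell and 1 rose, with a median log2 change of -0.63 (-0.02 with spike-in scaling). These include CREBRF (a regulator of CREB3; log2 fold change -2.61 ± 0.40 SE, edgeR adjusted p = 0.00068) and the sterol factors SREBF1 (log2 fold change -1.09 ± 0.28 SE, edgeR adjusted p = 0.014) and SREBF2 (log2 fold change -0.83 ± 0.14 SE, edgeR adjusted p = 0.001). The call of SREBF1 ended without starved library 2 (-0.76) or solvent library 1 (-0.86).

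Machinery that serves the entry of proteins into the ER and their exit had medians near that of all genes. For the translocon, signal peptidase and oligosaccharyl transferase, 2 of 31 fell and 5 rose, with a median log2 change of 0.08 (0.66 with spike-in scaling). The largest were SRP54 (log2 fold change 0.60 ± 0.10 SE, edgeR adjusted p = 0.00089) and SRPRB (log2 fold change 0.56 ± 0.13 SE, edgeR adjusted p = 0.0088, uncertain), of the signal recognition system, and SEC61G (log2 fold change 0.54 ± 0.13 SE, edgeR adjusted p = 0.01), a channel subunit. For the coats of secretory vesicles, 2 of 27 fell and 6 rose, with a median log2 change of -0.02 (0.58 with spike-in scaling), led by the GTPases SAR1A (log2 fold change 0.59 ± 0.12 SE, edgeR adjusted p = 0.0041) and SAR1B (log2 fold change 0.44 ± 0.12 SE, edgeR adjusted p = 0.016) and the cargo adaptor SEC24D (log2 fold change -0.44 ± 0.12 SE, edgeR adjusted p = 0.015). Of further folding enzymes, 7 of 30 fell and 2 rose, with a median log2 change of -0.15 (0.45 with spike-in scaling). CRELD1 (log2 fold change -1.19 ± 0.17 SE, edgeR adjusted p = 0.00041), SDF2 (log2 fold change 0.69 ± 0.12 SE, edgeR adjusted p = 0.0015), a relative of SDF2L1, and UGGT1 (log2 fold change -0.68 ± 0.15 SE, edgeR adjusted p = 0.0055), the glucosyltransferase that checks glycoprotein folding, moved most. For further degradation factors, 5 of 27 fell and 2 rose, with a median log2 change of -0.15 (0.44 with spike-in scaling), led by UBE2G2 (log2 fold change 0.64 ± 0.10 SE, edgeR adjusted p = 0.00051), MAN1A1 (log2 fold change 0.59 ± 0.16 SE, edgeR adjusted p = 0.018) and MARCH6 (log2 fold change -0.58 ± 0.11 SE, edgeR adjusted p = 0.0028). Calls ended without 1 library for SEC61G (starved 2, 0.46), SAR1B (starved 2, 0.36, or solvent 1, 0.37), SEC24D (starved 1, -0.37, or solvent 2 or 3, both -0.39) and MAN1A1 (starved 2, 0.51, solvent 1, 0.52, or solvent 2, 0.58). Differences between these lists were not tested.

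In the inhibitor comparisons without the replicate block, 1 of the 139 genes of these lists was called, where 1.21% to 2.89% of all genes were. The gene called was ERLIN1, a membrane scaffold for degradation of the inositol trisphosphate receptor. It was read at 158, 117 and 109 CPM with solvent, 97.6, 74.2 and 74.8 CPM with DMA and 102, 97.6 and 98.7 CPM with C646, and DMA against solvent gave -0.64 ± 0.15 (SE; edgeR adjusted p = 0.047). All DMA libraries were below all solvent libraries. The call was lost with only the compared groups in the fit (-0.64), with spike-in scaling (-0.40), and without solvent library 1 (-0.46) or 2 (-0.70) or DMA library 2 (-0.57) or 3 (-0.59). With the block, 12 of the 139 were called between DMA and solvent (10.2% of all genes), 3 higher and 9 lower, ERLIN1 among them. Without solvent library 1, 4 of these calls were made (3.04% of all genes). The 3 higher with the block were ATF5 (uncertain), PPP1R15A and SESN2, of the list named for EIF2AK3 and ATF4. Of these only SESN2 was called without solvent library 1. Lower beside ERLIN1 were KDELR3, SPCS3, SRPRB, SSR1, TMEM129, TMX3, UBAC2 and UBE2G2, of which TMEM129 and TMX3 were called without that library. Between C646 and solvent 5 were called with the block (7.86% of all genes), 3 higher (CEBPB, PPP1R15A and SESN2) and 2 lower (EIF2S1 and SRPRB). Only SRPRB was called without solvent library 1 (2.06% of all genes). Between DMA and C646, 4 were called with the block (9.81% of all genes), SEC24C higher and CHAC1, MAN1A1 and TMX3 lower. These genes are named from the calls with the block, after their values were seen.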

How the data were processed

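The submitters' processing notes name Trimmomatic 0.36, STAR 2.7.0e and GRCh38.p10. How transcripts were quantified, and with which strand setting, is not given in the sources used. Per the file headers, each deposited table lists expected counts (estimated reads) and TPM per transcript. The effective length that the authors also deposited, another kind of value, was not used. The deposited TPM served for levels between genes and for 1 alternative. As the design allowed for estimates, expected counts were added up per GENCODE 29 gene and rounded. Of 182164 transcripts, 92 were spike-in controls (0.527% to 1.28% of counts) and 264 matched no gene (0.0923% to 0.146%). Both were left out. A limit of 3 counts is 0.105 to 0.203 CPM, for counting error only.

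Genes passing filterByExpr (minimum count 10, minimum total 15) were scaled by TMM and tested with edgeR 4.0.16 (glmQLFTest, robust), all 12 libraries entering a single model. P-values were adjusted by the method of Benjamini and Hochberg across 15263 genes, with a threshold of 0.05. The 95% intervals use the degrees of freedom of that model. The code was tested on simulated data. Same-numbered libraries pair where every correlation of their deviations from group means is over 0.1, which held among the refed groups (0.28 to 0.48). Genes sharing over 20% of their 31-base sequences or of their exons with other genes are called uncertain. Alternatives were DESeq2 1.42.0, its size factors, spike-in scaling, other filters, a model of only the compared groups, the replicate block (also without solvent library 1), a minimum log2 change of 1, and omission of each library. Members and lists were chosen with earlier results of these data known. All members may be named, those called and all sensors with each library's value, and from each other list up to 3 of the largest called changes, with DDIT3, ATF4 and TRIB3.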

Additional observations from a re-analysis of the deposited data

How the results depend on the processing

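Of the 26 members called between solvent and starved cells, 13 also had a log2 change of at least 1. Among all 15263 genes tested, 1177 were called with a change of that size. Spike-in scaling gave 11 calls (22.4% of all genes), 10 of them among the 26. Under spike-in scaling the log2 changes of CALR (0.13), CANX (0.068), PDIA4 (0.013), DERL1 (0.26), OS9 (0.25), MBTPS1 (0.052) and, outside the members, SEC24D (0.13) took the opposite sign, since that scaling raises the median of all genes. The other settings gave 23 to 32 calls, where 11.8% (no filter) to 35.7% (replicate block) of all genes were called. Leaving out 1 library gave 20 to 25 calls, where 14.5% to 22% of all genes were called. With the replicate block 32 were called, the 26 and also HSP90B1, P4HB, DNAJC10, ERO1A, EDEM3 and UBE2J1, while the share of all genes called went from 24.3% to 35.7%. Solvent and starved libraries do not pair by the rule used (correlations of 0.0957, 0.33 and 0.18 for libraries 1, 2 and 3), although each correlated best with its own number.

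Between DMA and solvent, the replicate block gave 1 call in place of 0 (MANF, beside 10.2% of all genes called). The block without solvent library 1 gave 0 (3.04% of all genes called). Leaving out 1 library gave 0 to 1 (0.0064% to 1.82% of all genes). Between C646 and solvent, the replicate block gave 2 calls (ERN1 and ERO1B, beside 7.86% of all genes), as did DESeq2 (2, the same genes, beside 6.46%). The block without solvent library 1 gave 0 (2.06% of all genes). Between DMA and C646, DESeq2 and the unfiltered table gave 1 call each (ERN1, beside 7.34% and 1.79% of all genes). The replicate block gave 2 (ERN1 and MBTPS1, beside 9.81%), also without solvent library 1 (2, beside 10.4% of all genes). The cause of these differences between settings was not tested. For the share of spliced XBP1 the exact test could not pass 0.05 under any alternative, so these say nothing about its stability, and the solvent minus starved difference changed sign without some single libraries. With 3 libraries a group, changes of small size can be missed, and the replicate spread of HSPA5 and SDF2L1 limits both most.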
